A study of Mus musculus with 8 samples.

Results

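The arrays carried 6324 probes for which the deposited annotation gave no gene symbol, out of 41174 probes other than controls. They were taken as the non-control probes whose gene name field only repeated the sequence identifier. The other 34850 probes had a symbol. The rule also takes in probes at known genes whose symbol was not filled in, and 1243 of the 6324 had a description that names another product. Each array compared the pancreas of 1 female NOD mouse, 12 weeks old and labelled red (Cy5), with 1 pool of RNA from 8 NOD.B10 mice of the same age, labelled green (Cy3). There were 8 arrays and 8 NOD mice on 2 slides of 4, with no dye swap, and the pool was a single RNA sample, so the spread between arrays came from the NOD mice and the arrays and not from the control animals. NOD mice are inbred and develop autoimmune diabetes. NOD.B10 mice share that background but differ at H2, the major histocompatibility complex, and do not become diabetic. Strain and dye cannot be told apart here.

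Probes of this kind were placed on expression arrays to catch transcripts that annotation had not yet named. They include single cDNA clones, clusters of expressed sequence tags, predicted transcripts, copies of known genes (processed pseudogenes), antisense RNAs and rearranged immunoglobulin sequences. Processed pseudogenes are copies that arise when an mRNA is reverse transcribed back into the genome, and ribosomal protein genes have many. Antisense RNAs are read from the strand opposite a gene, and immunoglobulin segments are expressed by B-cells and plasma cells, which enter the NOD pancreas with insulitis.

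By identifier, 3562 were RIKEN full-length cDNAs, 878 had identifiers beginning NAP, 550 were TIGR clusters, 463 were Ensembl transcripts, 592 had other cDNA or EST accessions and 279 had only a probe number. The description field read "Unknown" for 1406 of them. No position was listed for 178, and 25 lay in the H2 interval of chromosome 17, which differs between the strains by construction. Those 25 were counted but are not described further. The listed direction of 25654 probes with a symbol was compared with the strand of the gene of that name in GENCODE vM21, and it was the same for 98.9%, so the listed directions were used to tell sense from antisense neighbours.

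Most of these probes gave little signal. Red was well above background (the flag of the scanner software) in at least 4 arrays for 783 of 6324 (12.4%), against 34.7% of the probes with a symbol. A further 1318 passed only in green and 4223 passed in neither dye. The log ratio was exactly 0 in all 8 arrays for 1606 of them, because both dyes then held stand-in values. The 783 were tested with limma (one-sample moderated test over all 12885 probes that passed the same filter, Benjamini-Hochberg adjustment). Because the filter looks at the NOD channel, probes lost from NOD tend to fail it, and the directions are therefore reported apart.

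The red channel was dim on the scanner. The median red signal over local background of the tested probes without a symbol was 13.0 to 32.8 scanner units per array, against 153 to 189 for green, and the software's scaling multiplied red by a median of 16.6 to 33.99 and green by 2.57 to 3.35. The net scanner signal is given below for the called probes and for some others. All ratios are log2 of NOD over the pool unless stated otherwise.

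Sequences are shown for copies of ribosomal protein genes, since these include some of the brightest probes without a symbol, and for the antisense transcript at Ncam1. The array files hold no probe sequences, so they are taken from the GENCODE vM21 transcripts (GRCm38) with the Ensembl identifier listed for the probe. Of 607 probes with such an identifier 219 matched, and 66 of those were tested: 41 at protein-coding transcripts, 16 at pseudogenes, 7 at long non-coding or unclassified ones and the rest in other classes. The pair below is Rpl32-ps and bases 206 to 265 of the longest open reading frame of its parent Rpl32, which encodes a protein of the large ribosomal subunit. Capitals mark the 7 bases at which the copy differs. Over the whole frame of 408 bases the identity was 95.1%.
Rpl32: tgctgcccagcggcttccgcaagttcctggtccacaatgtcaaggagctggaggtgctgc
Rpl32-ps: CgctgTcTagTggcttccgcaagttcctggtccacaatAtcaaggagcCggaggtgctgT

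The next pair is Gm4968 and bases 49 to 108 of the longest open reading frame of Rps2, a protein of the small ribosomal subunit. The identity was 93.0% over 888 aligned positions, and both windows shown are those with the most differences along the alignment.
Rps2: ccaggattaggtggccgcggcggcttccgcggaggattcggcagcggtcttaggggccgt
Gm4968: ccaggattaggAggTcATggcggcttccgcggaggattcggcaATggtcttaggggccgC

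The last sequence is the final 100 bases of Gm11149, annotated as antisense, on chromosome 9.
Gm11149: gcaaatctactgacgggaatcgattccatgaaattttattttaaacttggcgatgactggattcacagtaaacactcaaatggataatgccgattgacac

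The first comparison asked which probes without a symbol differed between the NOD pancreata and the pool. Of the 783 tested probes 12 (1.53%) were higher by at least 2-fold at an adjusted p under 0.01. By the same rule 1 (0.128%) was lower. The balance of directions changed with the filter. It was 17 higher and 56 lower of 2101 when either dye could pass, against 138 and 696 of all 24388 probes. With no filter it was 18 and 20 of 6324, against 85 and 327 of all 41174. With a red signal of 25 it was 20 and 24 of 3920, against 105 and 405 of all 32025. Over all 12885 probes tested, 0.799% were higher and 0.341% were lower by the same rule. Without the fold limit, 119 (15.2%) were higher and 45 (5.75%) lower, against 7.11% and 6.86% of all probes. The median ratio was 0.06 over the tested probes without a symbol and -0.06 over all probes tested, and the median SD over the 8 arrays was 0.32 and 0.31.

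The largest ratio belonged to AK089219, a RIKEN clone from a library of CD11c-positive dendritic cells of NOD mice, which has no position on the array's genome build. Its lowest, median and highest ratios were 0.71, 3.09 and 4.52, and the mean was 2.77 ± 1.49 (SD, n = 8), with an adjusted p of 0.0018 (limma). All 8 mice were above 0, and the 4 mice of slide 1 (mean 1.51) lay below the 4 of slide 2 (mean 4.04) with no overlap. The net red signal behind it was only 4.32 to 25.5 scanner units, and red was well above background in 5 arrays. The array holds 12 probes from libraries of NOD-derived cells without a symbol, and the other 11 did not pass the filter.

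The next 2 carried identifiers beginning NAP and no description. NAP053909-1, at chr2:62611179-62611238 on the mm8 build that the arrays use, ranged from 1.33 to 3.58 with a median of 2.47. Its mean was 2.44 ± 0.82 (SD, n = 8) and its adjusted p 0.00024 (limma), with slide means of 1.93 and 2.95 and a net red signal of 19.6 scanner units. The closest named probe, Kcnh7, a potassium channel 23149 bases away on the opposite strand, was listed at 0 in all 8 arrays. NAP029864-1 spans 80010819 to 80057082 on chromosome 15, and a probe for Mgat3, which adds a branching sugar to glycoproteins, lies within the span on the opposite strand. Its ratios ran from 0.67 to 2.73 with a median of 1.90 and a mean of 1.89 ± 0.73 (SD, n = 8, adjusted p = 0.00048 by limma). Its net red signal was 16.1 scanner units. Mgat3 itself did not pass the filter and averaged -0.09.

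NAP055718-1, on chromosome 1 (65194723 to 65194782), varied least among the higher probes. Its ratios lay between 1.12 and 1.78, with a mean of 1.41 ± 0.24 (SD, n = 8, adjusted p = 4.6e-05 by limma) and slide means of 1.40 and 1.42. Pip5k3, a lipid kinase whose probe lies 7322 bases away on the same strand, was not well above background in red in any array.

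TC1623222, on chromosome 11, is described as matching CROP, a splicing-related protein. Its ratios ran from 0.72 to 2.01 with a mean of 1.32 ± 0.43 (SD, n = 8, adjusted p = 0.00028 by limma). The probe for 3300001P08Rik, 1494 bases away on the same strand, averaged 0.19 ± 0.09. That probe was far brighter, with a mean processed red signal of 9357 against 259 for TC1623222. It was well above background in 8 arrays, against 7. Whether the 2 probes read the same gene was not tested, so the ratio of TC1623222 cannot be taken as that of the CROP gene. The net red signal of TC1623222 was 11.4 scanner units.

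Another 7 were between 1.01 and 1.37. TC1721480 (chromosome 4) averaged 1.37, TC1683744 (chromosome 14) 1.29, NAP052136-1 (chromosome 3) 1.24 and TC1707343 (chromosome 17, outside the H2 interval) 1.18. AV273577, from a testis library, averaged 1.02, and A_52_P957248 on the X chromosome, which is outside the rule for named members and is named because it completes the 12, averaged 1.01. These 6 were above 0 in every mouse. The seventh, AF152371, is an immunoglobulin and is described below. A named probe lay within 50 kb of 4 of these 6, and Ece1 averaged -0.72, Mbnl1 -1.24, Brpf3 0.04 and 1700058C01Rik 0.01 without passing the filter. Leaving out mouse 5, 6 or 8 ended the call of AV273577 (means 0.99, 0.91 and 0.97), and leaving out mouse 3, 6, 7 or 8 that of A_52_P957248 (0.97, 0.94, 0.93 and 0.99).

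The probe called lower was BC034637 on chromosome 17 (24616219 to 24616278), a cDNA that the database flags as a chimeric clone. Its ratios ran from -3.08 to -1.08 with a median of -1.54, and the mean was -1.80 ± 0.73 (SD, n = 8, adjusted p = 0.00056 by limma). Red was well above background in only 4 of the 8 arrays and a stand-in value in 1. The net red signal of BC034637 fell to 2.83 scanner units, so the size of its ratios is uncertain. All 8 mice were below 0, with slide means of -1.21 and -2.39 that did not overlap. The closest named probe, Spsb3, 2012 bases away on the opposite strand, did not pass the filter. It averaged -0.91, was below 0 in all 8 arrays and had slide means of -0.47 and -1.35. The closest tested one, Nubp2, which helps assemble iron-sulfur proteins and lies 5540 bases away, averaged -0.17.

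**Figure D1:**
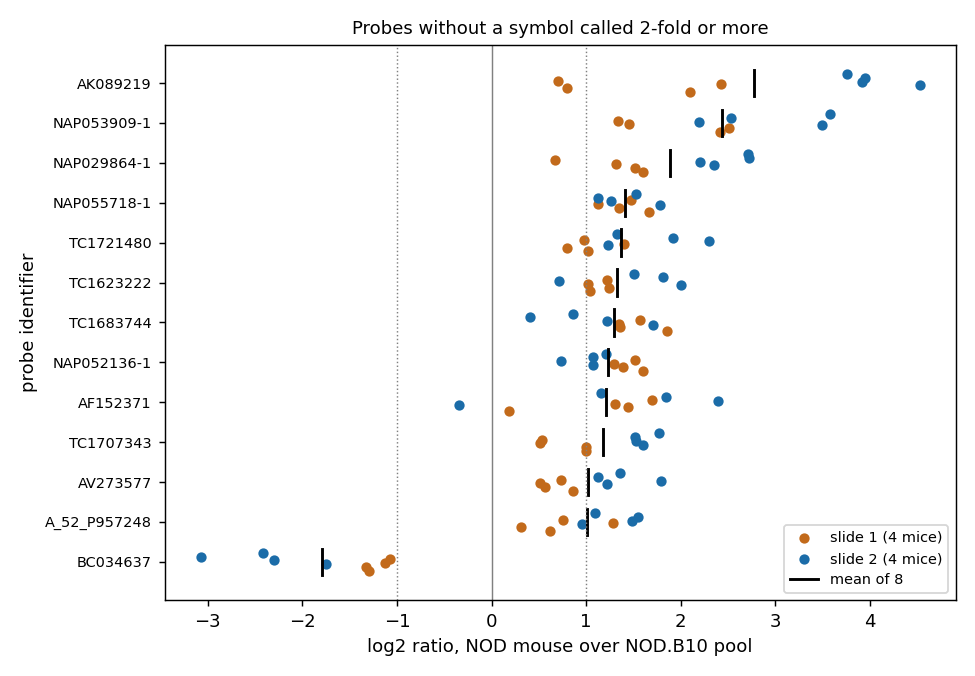
Log2 ratio of each NOD mouse over the pool (x axis) for the 13 called probes without a symbol (y axis), coloured by slide, with a black bar at the mean of 8 arrays and dotted lines at 2-fold. AK089219 splits by slide, with means of 1.51 and 4.04, and BC034637 is the one probe on the left, at -1.80.

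Of these 13, 12 had the same sign in all 8 mice, and AF152371, which was below 0 in 1 mouse, was the exception. Slide means differed in size for most of them, and 11 of the 13 were further from 0 on slide 2. In every one both slide means had the same sign.

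The size of these ratios rests on the signal scaling. The net red signal of the 12 higher probes averaged 11.4 to 80.0 scanner units, with a median of 29.0, and that of BC034637 was 16.8. When raw signals were background-corrected by the normexp method and normalized by loess, none of the 13 stayed past 2-fold and the means of the 12 lay between 0.12 and 0.61, all above 0. BC034637 averaged -0.65. That scaling called 13 other probes higher, NAP114506-1 (1.42) and Rpl32-ps (1.32) among them, and 0 of the 12. When background-subtracted signals were centered on their medians, 6 of the 12 stayed called (AK089219, NAP053909-1, NAP029864-1, NAP055718-1, TC1623222 and TC1683744), as did BC034637, and 24 were higher and 14 lower in all, so that the share of calls that were higher was 63.2% against 92.3% with the deposited ratios. Over all probes tested that share was 27.3% (151 higher, 403 lower) against 70.1%.

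**Figure D2:**
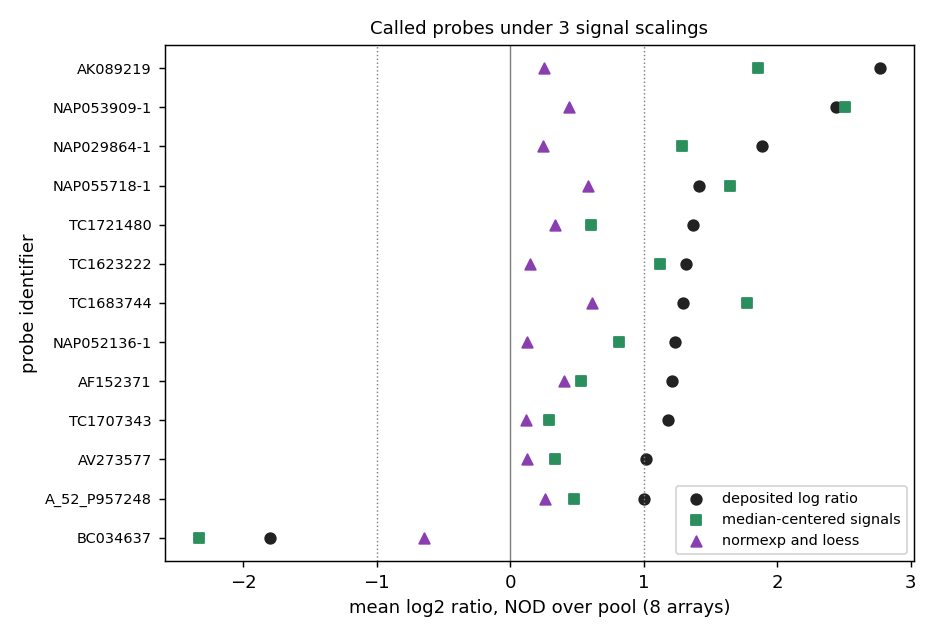
Mean log2 ratio over 8 arrays (x axis) of the 13 called probes (y axis) from the deposited log ratio (circles), median-centered signals (squares) and normexp with loess (triangles), with dotted lines at 2-fold. Every triangle lies between -0.65 and 0.61, inside the dotted lines, and NAP053909-1 is near 2.5 in the other two.

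**Figure D3:**
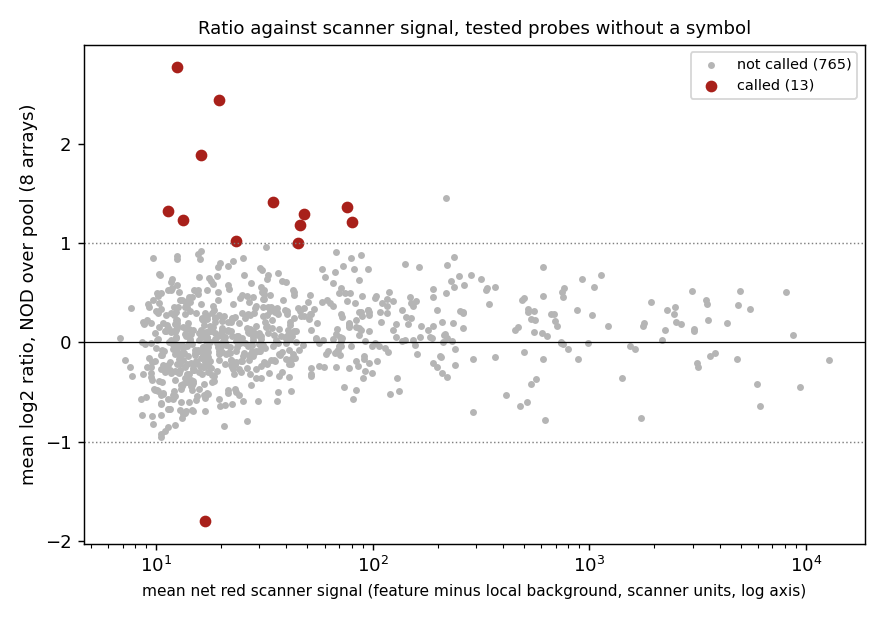
Mean log2 ratio (y axis) against mean net red scanner signal (x axis, log scale) for 778 tested probes without a symbol outside the H2 interval. The 13 called probes (red) all lie at or under 80.0 scanner units. The 8 with the highest mean processed red signal, a measure other than the x axis, lie within 2-fold in these deposited ratios.

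Probes that passed a wider filter (well above background in either dye in at least 4 arrays) numbered 2101, and of these 17 were higher (0.809%) and 56 lower (2.67%). Over the 24388 probes in that fit the shares were 0.566% and 2.85%. In 49 of the 56 lower ones red was never well above background, and in 39 it was a stand-in value in at least 4 arrays, so those ratios hold a stand-in for NOD. The lowest was A_51_P250217, listed as unknown, at -1.92. M20632, described as LLRep3 from a repetitive element, averaged -1.28, and red was never well above background for either.

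Immunoglobulin sequences made up 69 of the 6324 probes, and 9 were tested. Antibody chains are assembled from variable and constant segments, and these probes read both. The median ratio over the 9 ran from -0.18 in mouse 8 to 1.16 in mouse 4, 8 of 9 had a mean above 0, and 1 was called, against 0.799% of all probes. The 9 passed through the NOD channel, so their direction says nothing of the 69: red was never well above background in 47, and green was in at least 4 arrays for 30. The called one was AF152371, the kappa light chain of a monoclonal antibody, on chromosome 6 (68186721 to 68186780). Its lowest, median and highest ratios were -0.35, 1.37 and 2.40, with a mean of 1.21 ± 0.89 (SD, n = 8, adjusted p = 0.0087 by limma). It was above 0 in 7 of 8 mice and its slide means were 1.16 and 1.26. Leaving out mouse 2, 3, 4, 6, 7 or 8 ended the call (means 1.04 to 1.22), and so did slide as a covariate.

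The same mice were high in several of these probes. AK007918, an IgG2a heavy chain clone from a pancreas library, was 1.87, 2.50, 2.36 and 2.04 in mice 2, 4, 6 and 7 and -1.67, -1.38 and -0.81 in mice 1, 5 and 8, with 0.53 in mouse 3. Its mean of 0.68 ± 1.75 (SD, n = 8) had an adjusted p of 0.35 (limma), on a net red signal of 25.4 scanner units. Red was well above background in only 5 arrays, with a lowest net signal of 2.21. In 2 arrays it was a stand-in value, so 2 of these ratios hold a stand-in for NOD. The IgM heavy chain probe ENSMUST00000003582 was highest in mouse 6, at 2.19, and lowest in mouse 3, at -0.67. Its mean was 0.86 ± 0.91 (SD, n = 8, adjusted p = 0.039 by limma), and the named IgM probe Igh-6, 471 bases away, averaged 0.94. The light chain U26471 went the other way, at -0.32, with 2 mice above 0. Across the 36 pairs of the 9 probes the median correlation over the 8 arrays was 0.42, as a description of arrays that share mice and a pool. The correlations ran from -0.42 to 0.91, and 28 of the 36 were above 0. None of the 7 probes described as T cell receptors passed the filter.

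**Figure D4:**
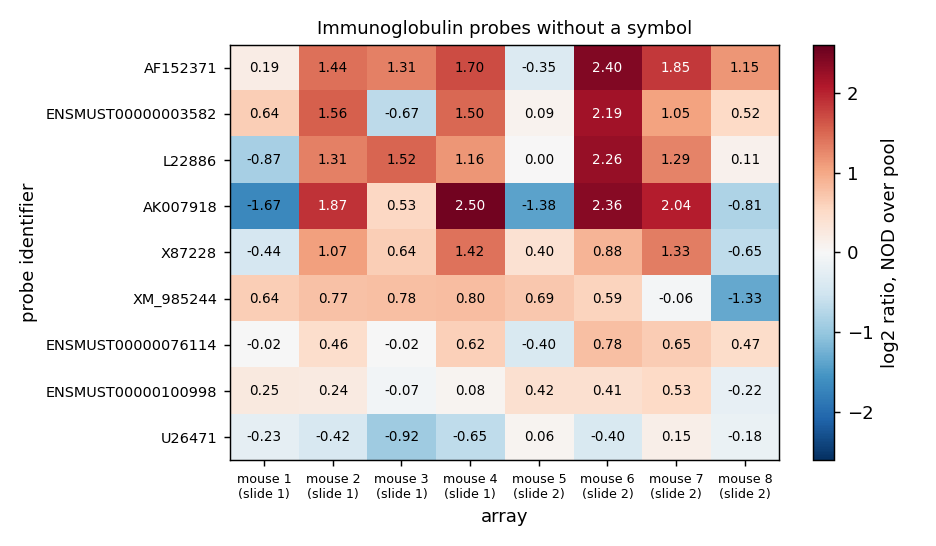
Log2 ratio of each NOD mouse over the pool (colour and printed value) for 9 immunoglobulin probes without a symbol (rows, ordered by mean) in 8 mice (columns). Mice 2, 6 and 7 are above the row's mean in 8 of 9 rows and mouse 8 in 2, while U26471 in the last row stays between -0.92 and 0.15.

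Markers of other cells were read on the same arrays. Of 8 B and plasma cell markers, 4 were tested, 1 was called higher and the 8 ranged from -0.35 to 1.57, with a summed red signal of 1071 to 5307 against 1123 to 1628 in green. Of 8 T cell markers 3 were tested and 1 was called higher, and the 8 had a median of 0.77, from -0.12 to 2.30, with a red sum of 4440 to 16774 and Cd2 and Cd247 never well above background. Of 5 lymph node stroma markers 4 were on the array and 2 were tested, with 1 called higher, a median of 0.97, a range of -0.47 to 1.32 and Madcam1 never well above background in red. Acinar markers (8 of 10 on the array, 8 tested) lay between 0.00 and 0.57, and islet markers (7 tested) had a median of -0.43. The 5 fat markers on the array (4 tested) lay between -0.98 and -0.17 with a median of -0.91. None of the acinar, islet or fat markers was called. Of 8 liver markers on the array 2 were tested and 1 was called lower. The 8 had a median of -2.43, with 5 never well above background in red. The part of these cells in the immunoglobulin ratios was not tested. In bulk tissue, more cells of a type and more RNA per cell cannot be told apart.

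The 8 brightest probes without a symbol, by mean processed red signal, all lay within 2-fold in the deposited ratios. With normexp and loess 4 of them were called past 2-fold, at 1.75 (AK131930), 1.42 (NAP114506-1), 1.32 (Rpl32-ps) and 1.07 (TC1709414), and AK131930 was also called with median-centered signals, at 1.10. NAP114506-1, the brightest in NOD, lies on chromosome 17 (39456050 to 39456109) among ribosomal RNA sequences and had a mean of -0.17 ± 0.17 (SD, n = 8, adjusted p = 0.11 by limma). CF584628, an EST listed with the transcript of Spink1, a trypsin inhibitor secreted by acinar cells, ranged from -0.60 to -0.32. Its mean was -0.45 ± 0.10 (SD, n = 8, adjusted p = 0.0011 by limma), and it was below 0 in 8 of 8 mice, though its sign turned to 0.90 with normexp and loess and to 0.09 with median-centered signals. It is placed on chromosome 16, where Ubxd7, 462 bases away, averaged -0.12.

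D50494, the RNA helicase RCK (Ddx6), ranged from -0.96 to -0.51 with a mean of -0.64 ± 0.15 (SD, n = 8, adjusted p = 0.00035 by limma). The named Ddx6 probe 536 bases away averaged -0.75 but did not pass the filter, and the sign of D50494 turned to 0.50 with normexp and loess. TC1709414 (Rps15a) averaged 0.34, with 7 of 8 mice above 0, and was higher than the named Rps15a probe in 8 of 8 arrays by 0.32 ± 0.17 (exact sign-flip test, two-sided p = 0.0078, 0.018 after adjustment over the 7 neighbour pairs of named probes). AV141866, an embryo EST without a position, averaged -0.24, and NAP102738-1 on chromosome 18 averaged -0.41, which turned to 0.77 with normexp and loess and to 0.11 with median-centered signals.

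Together 6 tested probes lay at the ribosomal RNA sequence on chromosome 17 (39451673 to 39457505). Ribosomal RNA is the bulk of cellular RNA and is made in the nucleolus from repeated genes. All 6 means were below 0, from -0.64 to -0.17, and 3 were lower at an adjusted p under 0.01, against 6.86% of all probes. The 18S probe J00623 had a mean of -0.64 ± 0.16 (SD, n = 8, adjusted p = 0.00042 by limma) and BC127072 one of -0.60 ± 0.19 (adjusted p = 0.00081). The locus was chosen after its values were seen, its 6 probes read 1 repeated unit, and only 4 of the 6 stayed below 0 under either other scaling.

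Ribosomal protein or ribosomal RNA was named in the descriptions of 43 probes without a symbol, and 25 of these were tested. Their median ratio was 0.21, against -0.06 over all probes tested, with 7 higher and 1 lower at an adjusted p under 0.01 (7.11% and 6.86% of all probes), the lower one being the 18S probe above. Rpl32-ps, the copy printed above, averaged 0.07 ± 0.15 (SD, n = 8, adjusted p = 0.48 by limma), and 1.32 with normexp and loess. Which of the near-identical copies it reads is uncertain. TC1665419 (Rpl3) was higher at 0.77 ± 0.19 (SD, n = 8, adjusted p = 0.00027 by limma), and the named Rpl3 probe averaged 0.13. A second Rpl3 probe, TC1603713, ran from -1.87 to 0.97 on a net red signal of 9.30 scanner units, with a lowest value of 0.78. Its red was well above background in 4 arrays and a stand-in value in 2, so the ends of that range are uncertain.

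The small-subunit protein S2 had 7 tested probes without a symbol, all with a mean above 0, from 0.13 to 0.99. They passed through the NOD channel, and M20632 (LLRep3, -1.28), which also lies on chromosome 17, did not. The 3 named Rps2 probes lay between 0.00 and 0.38. The highest was TC1700199, 76 bases from the Rps2 probe on chromosome 17 (24449309 to 24449368), with ratios of 0.77 to 1.31, a median of 0.99 and a mean of 0.99 ± 0.20 (SD, n = 8, adjusted p = 0.00012 by limma). Its net red signal was 44.0 scanner units, and its mean 0.44 with normexp and loess. The neighbouring Rps2 probe averaged 0.00 ± 0.08. AK131930, an embryonic stem cell clone listed with the LLRep3 repeat and among the brightest, averaged 0.51 ± 0.11 (adjusted p = 0.00067), and 1.75 and 1.10 under the other scalings. The 2 probes listed with the Gm4968 transcript averaged 0.56 and 0.22. The arrays place them on chromosome 17 and GENCODE places Gm4968 on chromosome 6, so the name rests on the identifier alone. With normexp and loess 5 of the 7 stayed above 0. Because the copies are near-identical (93.0% for the pair printed above), which copy each probe reads is uncertain.

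Of 26 retroviral or transposon probes 7 were tested, and 1 was higher at an adjusted p under 0.01, against 7.11% of all probes. It was U15647, a sequence with a reverse transcriptase frame, at 0.54 ± 0.14 (SD, n = 8, adjusted p = 0.0007 by limma), above 0 in 8 of 8 mice. The 2 ETn transposon probes, S57425 and AY423051, averaged -0.33 and -0.39 (adjusted p = 0.086 and 0.17 by limma). Olfactory, vomeronasal or pheromone receptors were named for 36 probes, of which 2 were tested (-0.08 and 0.40), and no probe without a symbol was described as a digestive enzyme.

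Clones differed in library of origin. Tested clones numbered 24 of 600 from immune libraries (median 0.08), 53 of 1591 from nervous system and eye (0.09), 21 of 222 from testis (-0.11), 23 of 685 from embryo or neonate (-0.09), 2 of 28 from liver (-0.04) and 1 of 3 from pancreas or islet (0.68). At an adjusted p under 0.01, 10 clones from nervous system and eye were higher and 2 lower, 5 testis clones were higher and 1 lower, 4 from other tissues were higher and 2 lower (of 31 tested), and 3 immune and 2 embryo or neonate clones were higher. Over all probes 7.11% were higher and 6.86% lower. The thymus clone AK077774, which lies 581 bases from Mcam, a cell adhesion molecule, on the opposite strand, averaged 0.60 ± 0.25 (SD, n = 8, adjusted p = 0.0015 by limma), whereas Mcam averaged -0.65.

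Position gave 245 tested probes a tested named neighbour within 10 kb, 169 read in the same direction and 76 in the opposite one. Across genes, not replicates, and with shared arrays, the Pearson correlation of the mean ratios was 0.25 in the same direction and -0.06 in the opposite one. Within 1 kb it was 0.34 over 69 pairs and 0.06 over 29. Only 16 of the 245 differed from the neighbour by 2-fold or more. TC1661731 on chromosome 15 averaged 0.66, while Wdr67, 2027 bases away, averaged 2.52. BC107410 averaged 0.37, while Malat1, a nuclear long non-coding RNA 1608 bases away, averaged -1.13. These were chosen after their values were seen.

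**Figure D5:**
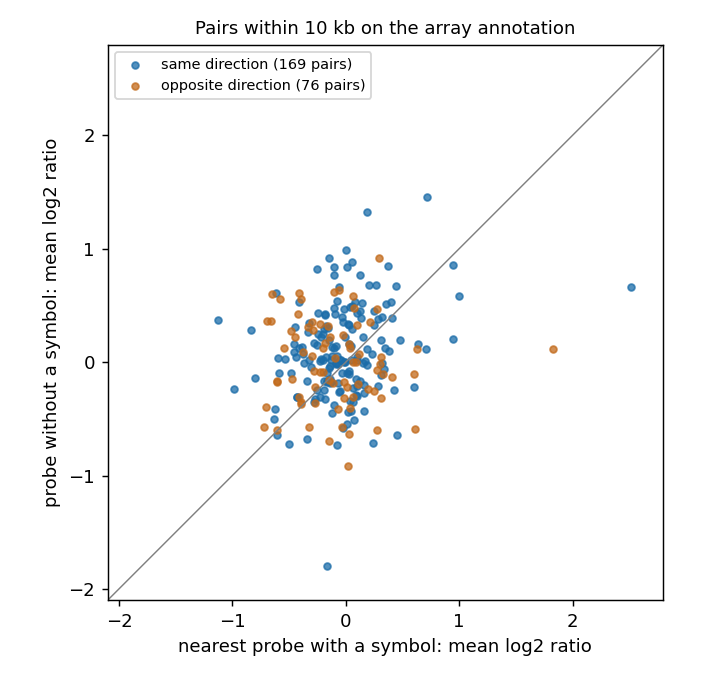
Mean log2 ratio of 245 probes without a symbol (y axis) against the nearest tested probe with a symbol within 10 kb (x axis), coloured by listed direction, with a line of equality. Most points lie within 2-fold on both axes, and the Wdr67 pair (2.52 against 0.66) is the point furthest right.

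AK036529, the clone of Gm11149 printed above, was higher at 0.73 ± 0.36 (SD, n = 8, adjusted p = 0.0020 by limma), with all mice above 0 and slide means of 0.48 and 0.98. It lies 4940 bases from the probe of Ncam1, the neural cell adhesion molecule, on the opposite strand, and Ncam1 did not pass the filter and averaged -0.13. With normexp and loess its mean was 0.04, on a net red signal of 30.9 scanner units. In the other direction, ENSMUST00000035012, for Stt3b, a subunit of the enzyme that attaches sugars to nascent proteins, was lower at -0.78 ± 0.18 (adjusted p = 0.00022).

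Slides were compared because they carried different mice. Between the slides 6 of the 783 (0.766%) differed by 2-fold at an adjusted p under 0.01, against 0.768% of all probes. The largest was TC1682954, which matches endoplasmin (GRP94, an endoplasmic reticulum chaperone). Its ratios were 2.06, 3.24, 2.98 and 3.87 in mice 1 to 4 on slide 1 and -0.32, -0.10, -0.31 and 0.21 in mice 5 to 8 on slide 2, with no overlap and a difference of -3.17 (adjusted p = 0.0032 by limma). The exact permutation test of the slide difference gave its smallest possible p, 0.029 (two-sided). The probe was picked for that difference, so this p adds no support. Its mean over the 8 was 1.45 ± 1.77 (SD, n = 8, adjusted p = 0.061 by limma), and with slide as a covariate it was called higher (adjusted p = 0.00043 by limma). That fit averages the slide means, 3.04 and -0.13, so the call rests on slide 1.

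The named probe for that gene, Hsp90b1, 61 bases away in the same direction, split the same way. It was 2.09, 2.25, 1.65 and 1.37 on slide 1 and -0.60, -0.52, -0.18 and -0.29 on slide 2, a difference of -2.24 (adjusted p = 0.0015 by limma). The other 5 were NAP027922-1 (slide means 1.25 and -0.62), TC1650301, which matches an aldo-keto reductase (0.39 and -1.27), AV121721 (0.52 and -0.63), BC048507 (0.47 and -0.55) and ENSMUST00000093911, described as myosin XVB (-0.86 and 0.24). Leaving out 1 mouse moved the count of 6 to between 0 and 7, and it was 52 with median-centered signals, 3 with normexp and loess and 1 with no filter. Slide and mouse cannot be told apart. A few probes varied without such a split: AK033818, an epididymis clone, had an SD of 1.76 and stood at 3.96 in mouse 1 and at 0.53 or less in the other 7.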

How the data were processed

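Pancreas RNA of 8 NOD mice was hybridized on 2-colour Agilent arrays against 1 NOD.B10 pool. The authors used Feature Extraction 10.7.3.1 (positions on mm8). The deposited log10 ratio is red over green after background subtraction, detrending and dye normalization, and the deposited intensity columns hold mean, background and processed signals. Ratios were converted to log2, and repeated spots were averaged per probe (2 members have 10 spots). The filter asked for the red flag in 4 or more arrays, with no demand on green, and what passed was tested with limma 3.58.1 (R 4.3.3, data.table, version 1.17.8) and Benjamini-Hochberg adjustment. Calls need 2-fold and an adjusted p under 0.01. The fit was tested on simulated data. Exact sign flips (256) were used for the neighbour pair whose p is given. Tables and plots used Python 3.11.15, numpy 2.4.6, pandas 2.3.3, matplotlib 3.10.9 and Biopython, which aligned sequences.

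The members, description groups, marker lists and tests were chosen with earlier results of these data known. Named members are the 10 highest and 10 lowest called ones with 1 sign in 8 arrays and the 8 brightest in processed red signal. Called immune or digestive descriptions, called groups within 10 kb and the 5 of largest SD are named too. Others named were chosen after their values were seen. The number of arrays limits precision. Nothing but the mouse array files was analysed here.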

Additional observations from a re-analysis of the deposited data

Results flagged for a closer look

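Among the 25 probes checked for 1 mouse standing apart from the other 7 (Dixon's test for 8 values, which chance passes in about 1 group in 20), 4 did so. AK033818 was at 3.96 in mouse 1. It is among the 5 probes chosen for the largest SD, so the rate of 1 in 20 does not hold for those. D50494 (Ddx6) was at -0.96 in mouse 5. Rpl32-ps (ENSMUST00000091052) was at -0.26 in mouse 8, and TC1709414 (Rps15a) at -0.037 in mouse 6. Without mouse 1 the mean of AK033818 went from 0.06 to -0.49. The other 3 kept their sign without any 1 mouse.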

How the results depend on the processing

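The count of 12 higher probes was 18 without a filter and 17 with either dye. It lay between 10 and 13 with plain tests, both dyes in the filter, clean spots, processed signals, slide as a covariate, an adjusted p under 0.05 or normexp and loess, and between 10 and 12 without any 1 mouse. It was 20 with a red signal of 25 in place of the flag, 24 with median-centered signals, 55 at 1.5-fold and, in a combination chosen after seeing the data, 72 with either dye and median-centered signals. The 1 lower probe became 20 without a filter, 56 with either dye, 24 with the red signal of 25, 14 with median-centered signals, 23 at 1.5-fold, 38 with either dye and median-centered signals, and 1 to 2 without any 1 mouse. The 6 between slides became 1 without a filter, 3 with normexp and loess, 52 with median-centered signals, 20 at an adjusted p under 0.05, and 0 to 7 without any 1 mouse (0 without mouse 2, 3 or 7). With slide as a covariate 11 of the 12 were shared, AF152371 was lost and TC1682954 gained, the latter through slide 1. With normexp and loess, NAP114506-1 reversed to 1.42, CF584628 to 0.90, D50494 to 0.50, NAP102738-1 to 0.77 and TC1603713 to 0.059. With median-centered signals, NAP114506-1 reversed to 0.57, CF584628 to 0.095, NAP102738-1 to 0.11, TC1603713 to 0.14 and AK033818 to -0.25. Without any 1 mouse, AK033818 ranged from -0.49 to 0.37 and TC1603713 from -0.32 to 0.082. The cause of these changes was not tested. No paired analysis was possible because the 8 arrays form 1 group against 1 pool. No dye swap and a dim red channel limit what the ratios can show.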
